A study of Cynoglossus semilaevis with 6 samples.

Results

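Alternative exon end events are exons that appear in a library's assembled transcripts with more than 1 start or end, so that the same exon is joined at different splice sites. They were taken as the rows of the 6 event files whose type was an alternative exon end, either exact (AE) or approximate (XAE), and rows of different libraries were counted as the same event when chromosome, strand, start and end were equal. This gave 4771 distinct events, among 66101 distinct events of all 7 classes (74842 when the forms with and without a skipped exon or retained intron are counted apart). Of the 4771, 3983 were only listed as exact, 645 only as approximate and 143 as both. Named genes numbered 1738, and 1204 of them carried 2 such events, 355 carried 3 or 4, 135 carried 5 or more and 44 only 1.

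Splicing removes introns between a donor site, at the 3′ end of an exon, and an acceptor site, at the 5′ end of the next exon. When a cell can use either of a pair of donors or acceptors, the exon comes in a longer and a shorter form. Within coding sequence, a length difference that is a multiple of 3 bases leaves the reading frame of the rest of the protein in place. Any other difference there shifts it. The choice between competing sites is set by the strength of the sites and by RNA-binding proteins such as the SR proteins and the muscleblind proteins.

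The fish were female half-smooth tongue sole (Cynoglossus semilaevis), a flatfish that lives in waters of varying salinity, aged 10 months. The LS_L group was kept at 15 ppt and the HS_L group at 30 ppt for 60 days. There were 3 libraries of liver RNA in each group, and 3 livers of a tank were pooled for each, so p-values measure the spread between pooled tanks and not between single fish. The comparison asks which exon ends were used at low against high salinity. Between 16176686 and 19428738 reads per library stood behind the gene table. The hepatocyte markers apoa1b, fgb and ttr summed to 34888 to 62435 RPKM in the 6 libraries. The exocrine pancreas markers cpb1 and prss1 summed to 706 RPKM in HS_L_1 and 2428 in HS_L_2, against 14.4 to 63.6 in the other libraries. Muscle markers summed to 0.283 to 55.3 RPKM, and alas2, the red blood cell marker that could be matched, was at 0. No alternative exon end event carried the name of a pancreas, muscle or red blood cell marker. Markers were matched by name only, with 2 features found for 11 pancreas markers and 1 for 6 red blood cell markers. Exon ends in other genes of these cell types were not looked for, so their share of the events is not known. In bulk tissue, fewer cells of a type and less RNA per cell cannot be told apart. The event files held no event of any type in 159 of 382 windows of 1 Mb with at least 10 expressed features (mean RPKM of at least 1), the same in all 6 libraries but for 1 window that some libraries filled. These windows held 40.2% of the expressed features, from 0 of 19 windows on chromosome 13 to 23 of 29 on chromosome 1. Genes there are not analysed here, and numbers per chromosome are not compared.

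The HS_L libraries listed slightly more alternative exon end events than the LS_L libraries. There were 2390, 2372 and 2349 distinct events in LS_L_1, LS_L_2 and LS_L_3, and 2423, 2463 and 2398 in HS_L_1, HS_L_2 and HS_L_3. The groups did not overlap. The means were 2370.3 ± 20.6 and 2428 ± 32.8 (SD, n = 3), a difference of -57.7 events, with p = 0.1 in a two-sided exact permutation test, the smallest that 3 against 3 libraries allow. Of the 7 event classes (transcript starts and ends, single and multiple exon skipping, single and multiple intron retention, and exon ends), exon ends were the only class whose numbers did not overlap between the groups. When only exact events were counted the groups overlapped, with a difference of -48.3 (exact permutation p = 0.3). As a percent of the events of these 7 classes, exon ends took 6.998, 7.076 and 7.063% in the LS_L group and 7.054, 7.351 and 7.089% in the HS_L group, and these also overlapped (exact permutation p = 0.3).

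**Figure D1:**
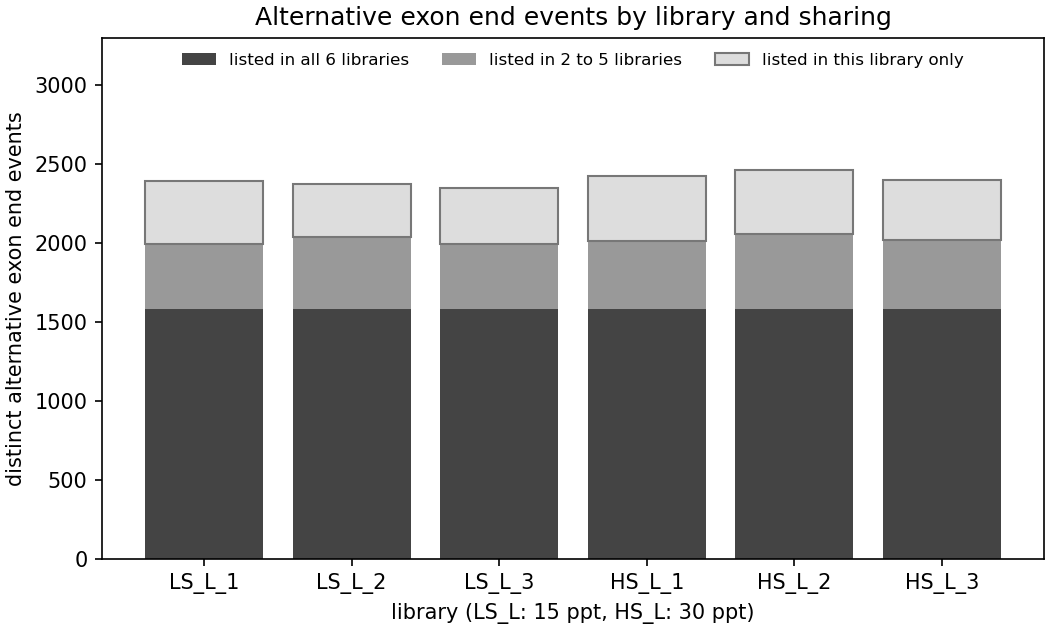
Distinct alternative exon end events (vertical axis, number) in each library (horizontal axis), stacked by how many libraries list them. The 1584 events common to all 6 libraries fill most of each bar, and the total lies between 2349 and 2463.

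An exon end event was typically listed either in every library or in 1. Of the 4771 events, 1584 (33.2%) were listed in all 6 libraries and 2278 (47.7%) in a single library. Events of all types gave similar shares, 33.36% in all 6 libraries and 50.55% in 1, so this pattern is not particular to exon ends. A listed event can be at 0 FPKM, as were 47.8% of the values of the 1584. When only events of at least 1 FPKM were counted, 9.05% were in all 6 libraries. In between, 473 events were in 2 libraries, 196 in 3, 121 in 4 and 119 in 5. Events seen in 1 library numbered 394, 332 and 353 at 15 ppt and 413, 405 and 381 at 30 ppt. These numbers overlapped between the groups (exact permutation p = 0.2). Single exon skipping was more often common to all libraries (53.4% of 2199 events), and intron retention far less often (6.76% of 5492 events).

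Libraries of the same group and libraries of different groups shared similar portions of their exon end events. The Jaccard index, which is the percent of the events of either library that both list, was 58.6 to 61.7 for the 6 pairs of libraries within groups (mean 59.5). For the 9 pairs between groups it was 57.9 to 60.7 (mean 58.9), and the ranges overlapped. Each pair of libraries shared 1751 to 1810 events, and the 1584 events common to all 6 libraries are among them in every pair. The index is thus mostly set by events that every library lists, and it can tell little about the groups. Events of all types gave means of 61.3 within and 61.1 between groups. Of the 1738 named genes, 522 had every alternative exon end event in all 6 libraries, 713 had every event in 1 library, and 503 lay in between.

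In pairs common to all libraries, the longer and the shorter exon were mostly assigned to different sets of reference transcripts. Nearly every event (4767 of 4771) shared exactly 1 coordinate with another, which gave 2708 pairs of a longer and a shorter exon. In 1573 pairs the 5′ end differed and in 1135 the 3′ end. Of the 867 pairs listed together in all 6 libraries, the longer and the shorter exon were assigned to different sets of reference transcripts in 829 (95.6%). For the 1280 pairs found together in 1 library this held for 247 (19.3%), so most of those had both exon ends assigned to the same reference transcript. Events common to all 6 libraries were also more often listed at 0 FPKM. Of their FPKM values 47.8% were 0, against 5.14% for events of a single library, and 312 of the 1584 were at 0 in all 6 libraries.

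The shared pairs differed from the single-library pairs in how often their lengths differed by a multiple of 3 bases. Coding sequence was not looked up, so exons outside it are counted too. The length difference was a multiple of 3 bases in 62.6% of the 867 pairs listed together in all 6 libraries (95% Wilson interval 59.4 to 65.8%). In pairs found together in 1 library it was a multiple of 3 in 35.1% of 1280 (32.5 to 37.7%), and the intervals did not overlap. In these single-library pairs the remainders after division by 3 were spread almost evenly, with 35.1, 32.9 and 32.0% at 0, 1 and 2 bases. Each library on its own gave a like share, from 34.7 to 36.7% at 15 ppt and from 33.3 to 34.8% at 30 ppt, ranges that overlap. Pairs of the same gene are not independent, and these intervals cover counting error only.

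**Figure D2:**
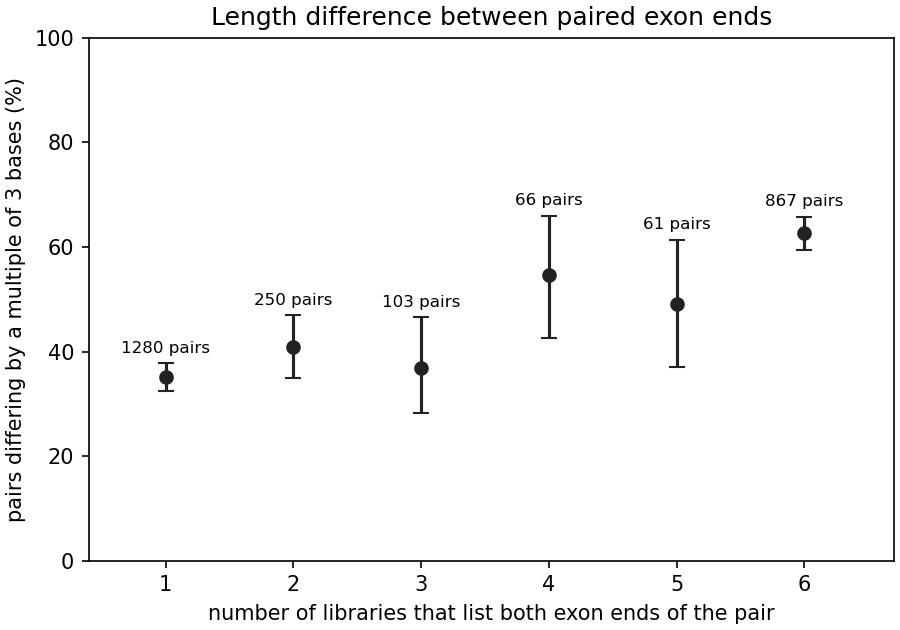
Percent of exon end pairs whose lengths differ by a multiple of 3 bases (vertical axis) against the number of libraries that list both ends (horizontal axis), with 95% Wilson intervals. The share is 35.1% for pairs of 1 library and 62.6% for pairs of all 6 libraries.

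The share was lower where more of the ends stood at 0 FPKM, but the intervals overlapped. Among pairs of all 6 libraries it was 67.7% (55.4 to 78.0%) of 62 pairs with both ends above 0 in every library, 59.2% (52.6 to 65.5%) of 218 pairs with 1 end at 0 throughout, and 48.6% (37.4 to 59.9%) of 72 pairs with both ends at 0 throughout. These differences were not tested. Where both ends had a mean FPKM of at least 1, 66.9% of 139 pairs kept the frame, with 65.3% at the 5′ end and 68.8% at the 3′ end. The median length difference was 32 bases in pairs of all 6 libraries and 49 bases in pairs of 1 library.

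Differences of exactly 3 bases were listed more often at acceptors than at donors. Acceptor sites that lie 3 bases apart are a well-known form of alternative splicing that adds or drops a single amino acid. Here 22 of 1573 pairs at the 5′ end (1.40%, Wilson interval 0.925 to 2.11%) differed by 3 bases, against 1 of 1135 at the 3′ end (0.0881%, 0.0156 to 0.497%). The intervals did not overlap. Few pairs at either end differed by under 10 bases. In pairs of 1 library, differences of 7, 8, 9 and 10 bases numbered 0, 0, 1 and 18 at the 5′ end. At the 3′ end they numbered 1, 0, 1 and 14. Whether the files list close ends in full was not tested. Among pairs of all 6 libraries acceptors 3 bases apart were listed in trit1, dgcr2, rfx4, dnajc24 and snx15. Both forms of rfx4 were at 0 FPKM in all 6 libraries. In dnajc24, a J-domain co-chaperone, the longer exon (chromosome 6, 1485959 to 1486065, plus strand) took 64.8, 87.7 and 65.9% of the summed FPKM of the pair at 15 ppt and 40.1, 69.6 and 80.0% at 30 ppt. In dgcr2 (chromosome 14, 22115876 to 22116028, plus strand) the longer exon took 79.4, 60.8 and 64.4% in the LS_L group and 67.3, 69.6 and 58.2% in the HS_L group. Both sets of values overlapped, and the longer form led in every library but HS_L_1 for dnajc24. The values of these genes were known when they were chosen.

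The FPKM of an exon end event is the summed level of the assembled transcripts that carry it, so events of a gene can share values. This is plain in nphs1, the fish gene for nephrin, which with 13 events in all 6 libraries had the most events of any gene together with LOC103393786. Its exon ends at 10720392 to 10720521 and 10720392 to 10720575 on chromosome 13 had 7.55 and 15.7 FPKM in LS_L_1, and the next exon, which follows both, had 23.3. The transcript assigned to the end at 10720575 was not itself named. Like some others of the 13, this event was named by lying inside nphs1. The other genes with most events were hcfc1b with 12, LOC103395851 with 11 and tdrd12 with 10. Their events were less widely shared: all 13 events of nphs1 and 8 of tdrd12 were in every library, against 0 of hcfc1b and of LOC103395851 and 2 of LOC103393786.

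The 10 highest exon ends that all libraries listed were in LOC103387801, pmt, serpinf2b, ybx1, eef1da and LOC103394520. The exon of LOC103387801 at 17826955 to 17827061 on chromosome 12 (minus strand) had 604, 840.4 and 964 FPKM at 15 ppt and 669, 1010 and 917 at 30 ppt. Its shorter form, which starts 18 bases later in the transcript, was at 0 in all 6. The same held for pmt, which in zebrafish encodes phosphoethanolamine methyltransferase. Its exon at 7390497 to 7390668 on chromosome 15 (plus strand) had 405, 458 and 523 FPKM at 15 ppt and 524, 658 and 726 at 30 ppt, and the form 18 bases longer was at 0 in every library. LS_L_3 and HS_L_1 were nearly equal, and the groups overlapped once the libraries were scaled. The log2 fold change of -0.51 ± 0.34 (SE) had an adjusted p of 0.926 in limma. Such pairs with 1 end at 0 throughout and the other above 0 in some library made up 218 of the 867.

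In serpinf2b and in a pair of ybx1 both ends were in use in every library, while in eef1da and in another pair of ybx1 a form was at 0 in some libraries. In ybx1, a cold-shock domain protein that binds RNA, the exon at 1679950 to 1680047 on chromosome 10 (minus strand) is 12 bases longer at its 3′ end than its partner. The longer form took 12.7, 19.0 and 17.5% of the pair in the LS_L group and 14.3, 21.0 and 12.2% in the HS_L group. At another exon of ybx1, a form with 63 more bases at its 3′ end (1680360 to 1680698) had 42.7, 0 and 0 FPKM in the LS_L group and 45.3, 0 and 63.1 in the HS_L group, beside 322 to 703 FPKM for the shorter form. In serpinf2b, the gene of alpha-2-antiplasmin, a secreted inhibitor of plasmin, the longer of a pair of acceptors 11 bases apart (chromosome 4, 14010617 to 14010708, minus strand) took 61.3, 57.8 and 57.5% in the LS_L group and 62.6, 69.1 and 58.5% in the HS_L group. The groups overlapped in each of these pairs. The exon of eef1da, a subunit of the translation elongation factor that recharges eEF1A, had 168 to 637 FPKM in the longer form, while the form 16 bases shorter was above 0 only in HS_L_2, at 109 FPKM.

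In the test of FPKM, no exon end event differed between 15 and 30 ppt at the threshold. Limma was fitted to the 8329 events of all types, with both forms of a skipping or retention event as separate events, that were listed in all 6 libraries with a mean FPKM of at least 1, and 521 of these were exon ends, in 340 named genes. An event was called when its p, adjusted by Benjamini-Hochberg, was under 0.05 and its log2 fold change lay beyond 1. By this rule, 0 exon ends and 11 events of all types were called (0.132%). At an unadjusted p under 0.05 there were 29 exon ends (5.57%), against a background of 5.55% over events of all types. Of these 29, 12 were higher at 15 ppt and 17 were higher at 30 ppt, and over all events the shares were 3.11 and 2.44%. Groups did not overlap in 54 exon ends (10.4%), against 11.3% of all events. The median log2 fold change was -0.03 for exon ends and 0.03 for all events, and the median size of the change was 0.33 and 0.28, with a median SE of 0.45 and 0.37.

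**Figure D3:**
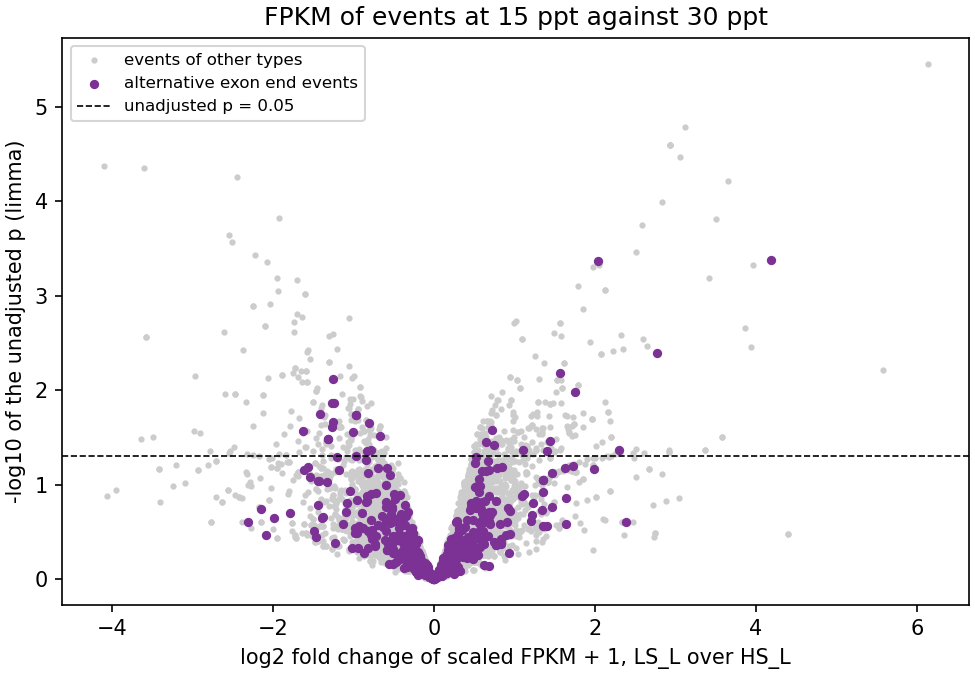
Log2 fold change of FPKM, LS_L over HS_L (horizontal axis), against -log10 of the unadjusted limma p (vertical axis) for 8329 events. The 521 exon end events (purple) lie within the cloud of the other types (grey), and 29 of them are above the dashed line of the unadjusted threshold.

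The exon end with the lowest unadjusted p was in mbnl1, which encodes a muscleblind-like splicing factor. The exon at 2830804 to 2830848 on chromosome 20 (minus strand) had 40.5, 26.3 and 27.3 FPKM at 15 ppt and 0, 3.54 and 0 at 30 ppt. The groups did not overlap, and the log2 fold change on the FPKM + 1 scale was 4.18 ± 0.64 (SE), with an adjusted p of 0.158 in limma, the same as that of an exon end of LOC103384510. The form with an acceptor 18 bases further on was at 0 in all 6 libraries, as were 3 of the other 4 exon ends of mbnl1. The last of these, at 2838596 to 2838766, was above 0 only in HS_L_2, with the same 3.54 FPKM. Without HS_L_2, the only HS_L library with any signal, the adjusted p was 0.00747, and over all alternatives it ranged from 0.00747 to 1. The mbnl1 features of the gene table overlap each other and were listed at 0 RPKM in all 6 libraries, so the level of the gene as a whole could not be set beside the exon.

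Few exon ends were at 0 FPKM throughout 1 group and above 0 throughout the other. Of the 1584 listed in all 6 libraries, 9 (0.568%) were at 0 in all HS_L and above 0 in all LS_L libraries, against 0.282% of events of all types listed in all 6. The reverse pattern was found in 9 (0.568%), against 0.458%. In LOC103384510 the shorter exon (chromosome 10, 1973038 to 1973169, plus strand) had 3.45, 3.94 and 2.44 FPKM in the LS_L libraries and 0 in the 3 HS_L libraries (adjusted p = 0.158 in limma). Among exon ends above 0 in both groups and higher at 30 ppt, the longer exon of rassf1, a Ras-association domain protein, at 2201130 to 2201579 on chromosome 11 (minus strand), had 1.54, 2.24 and 2.43 FPKM in the LS_L group and 5.29, 7.99 and 5.27 in the HS_L group. The groups did not overlap (log2 fold change -1.25 ± 0.33, adjusted p = 0.613 in limma), and the shorter form was at 0 throughout. An exon of plb1, a phospholipase B, at 12206734 to 12206875 on chromosome 7 (minus strand) had 14.3, 7.16 and 13.4 FPKM in the LS_L group and 33.4, 17.0 and 35.2 in the HS_L group, also without overlap and with an adjusted p of 0.744. The values of these exons and of that of mbnl1 were known when they were chosen.

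The exon ends of a pair were also compared with each other within each library. Of the 867 pairs in all 6 libraries, 139 had a mean FPKM of at least 1 at both ends, in 118 named genes. Limma was fitted to the log2 ratio of the longer to the shorter form, with 1 added to each FPKM. Where a form is at 0 this ratio follows the level of the other form, and where both are at 0 it is 0. In 90 of the 139 pairs a form was at 0 in at least 1 library, and in 16 both were. The ratio differed at an adjusted p under 0.05 in 0 pairs (0%), and at an unadjusted p under 0.05 in 10 (7.19%). The groups did not overlap in 18 pairs (12.9%). The use of a form varied widely among the pools of a group: the median SD of the percent of the longer form was 14.3 percentage points within the LS_L group and 13.6 within the HS_L group, while the median difference between the group means was 9.57 points. In 20 pairs the longer form led in every library, in 29 the shorter form did, and 90 were mixed.

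**Figure D4:**
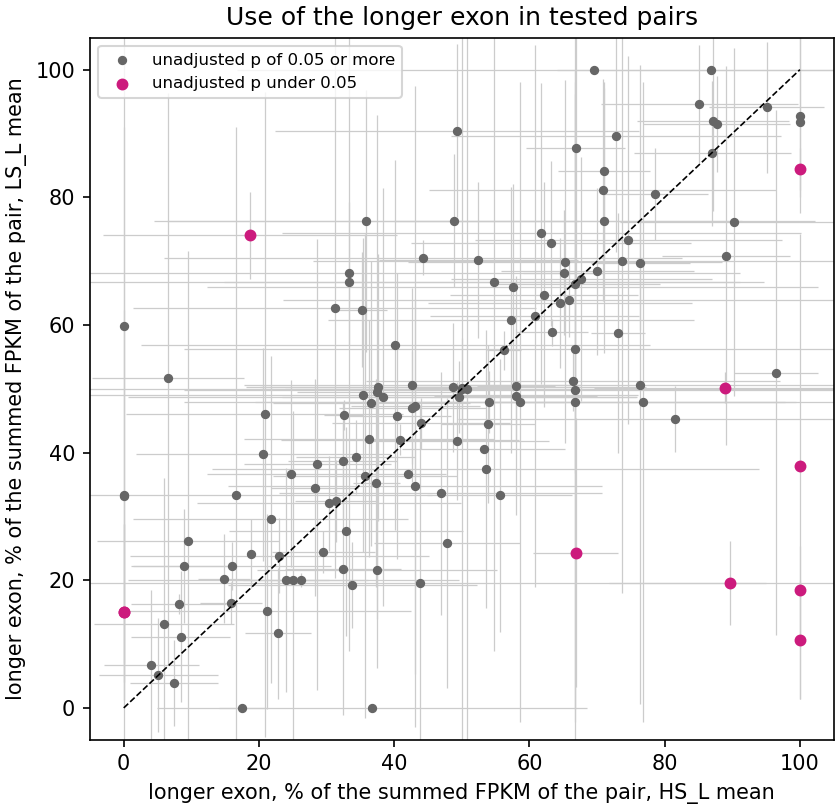
Percent of the summed FPKM of a pair that the longer exon took, mean of LS_L (vertical axis) against mean of HS_L (horizontal axis), for the 139 tested pairs, with bars of 1 SD over the libraries with a value. The 10 pairs with an unadjusted p under 0.05 are in pink, and 0 passed adjustment.

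The 2 pairs with the lowest p each had a weak form that was at 0 in every HS_L library. In zmp:0000001200 (chromosome 16, 1725549 to 1725685 and to 1725616, minus strand; the longer exon begins 69 bases earlier in the transcript), the longer form took 0, 17.1 and 15.0% of the pair in the LS_L group and 100% in the 3 HS_L libraries. The shorter form had 1.02, 2.97 and 3.81 FPKM in the LS_L group and 0 in the HS_L group. It thus reached the minimum mean of 1 FPKM only through the LS_L group. The longer form was weak too, at 0, 0.611 and 0.673 FPKM in the LS_L group and 0.842, 2.59 and 3.82 in the HS_L group. A share of 100% therefore stood for as little as 0.842 FPKM. The shares of the groups were fully apart (log2 ratio difference -2.94 ± 0.54, adjusted p = 0.142 in limma). In LOC103384510 the longer form, with an acceptor 51 bases upstream, took 84.9, 81.0 and 87.6% in the LS_L group and 100% in each HS_L library (-2.21 ± 0.44, adjusted p = 0.142). Its own FPKM was 16.8 to 19.4 in the LS_L group and 18.1 to 20.6 in the HS_L group, so the ranges overlapped in the longer form and were apart in the shorter one. With a pseudocount of 0.1 in place of 1, both pairs passed the threshold (adjusted p = 0.0177), with log2 ratio differences of -7.07 and -5.19, since the shorter forms stood at 0 at 30 ppt.

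**Figure D5:**
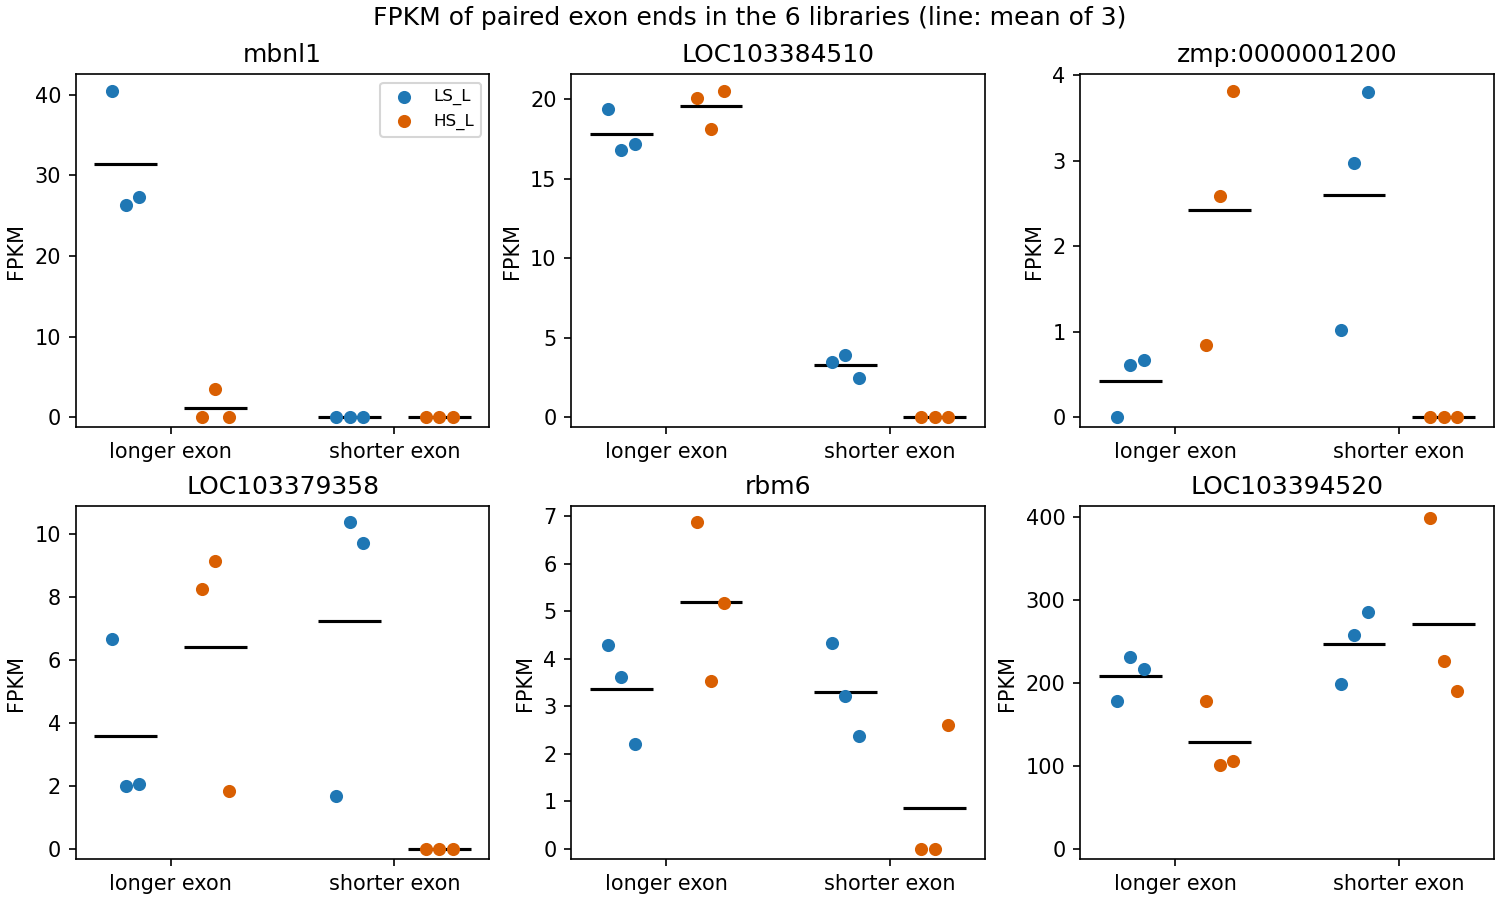
FPKM (vertical axis, linear) of the longer and the shorter exon of 6 pairs in each LS_L (blue) and HS_L (orange) library, with lines at the means of 3 libraries. In mbnl1 the longer exon lies between 26.3 and 40.5 FPKM in the LS_L group and at 3.54 or less in the HS_L group, while in LOC103394520 both forms are above 100 FPKM in every library.

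The 10 pairs did not all go in 1 direction of length. The longer form was used less in the LS_L group in 7 of the 10 pairs and more in 3. Among the 3 were both pairs of an unnamed transcript, which had the same FPKM values in every library and so are not independent. In ttyh2, of the tweety family of membrane proteins, the form with 23 more bases at its 3′ end (chromosome 8, 6246545 to 6246646, minus strand) took 77.4, 66.2 and 78.5% in the LS_L group and 0, 42.6 and 13.6% in the HS_L group. These values did not overlap (2.08 ± 0.55, adjusted p = 0.365 in limma). In rbm6, an RNA-binding protein, the form 18 bases longer at the 3′ end (chromosome 11, 1173049 to 1173141, minus strand) took 49.8, 52.8 and 48.0% in the LS_L group and 100, 100 and 66.5% in the HS_L group (-1.97 ± 0.66, adjusted p = 0.541). In LOC103379358, with forms 18 bases apart at the 3′ end on chromosome 5 (17913216 to 17913350 and to 17913332), the longer form took 79.9, 16.2 and 17.5% in the LS_L group and 100% in each HS_L library. LS_L_1 stood apart from LS_L_2 and LS_L_3 there. The remaining 5 pairs were in LOC103376646, xrcc3, ilkap, a protein phosphatase, and a pair of exons of 1 unnamed transcript, with adjusted p-values of 0.365 to 0.584 in limma.

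The pair of LOC103394520 was strongly expressed, and its groups stood apart. Its acceptors lie 20 bases apart on chromosome 18 (12612182 or 12612202 to 12612356, plus strand). The longer form had 178, 231 and 217 FPKM in the LS_L group and 178, 101 and 106 in the HS_L group. It took 47.3, 47.3 and 43.2% of the pair in the LS_L group and 30.9, 30.8 and 35.8% in the HS_L group, with means of 45.9 ± 2.36 and 32.5 ± 2.88% (SD, n = 3). The groups did not overlap, but the log2 ratio difference of 0.81 ± 0.43 (SE) had an adjusted p of 0.893 in limma. It was singled out after its values were seen.

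Some exon ends were listed in all libraries of 1 group and in 0 of the other. There were 13 of these for the LS_L group and 18 for the HS_L group, together 0.650% of exon ends, against 0.346% of events of all types. By class the share ran from 0.182% for single exon skipping to 0.728 and 0.733% for single and multiple intron retention. For the HS_L group the highest were the ends of an exon of LOC103393827 (chromosome 18, 911515 to 911619 and 911532 to 911619, minus strand). The longer form had 15969, 5928 and 5305 FPKM in HS_L_1, HS_L_2 and HS_L_3, and the shorter form 2568, 16161 and 3132, so that HS_L_2 had the forms in the opposite order to HS_L_1 and HS_L_3. The gene itself was abundant in every library, with 18186 (LS_L_1), 13678 (LS_L_2), 15965 (LS_L_3), 19164 (HS_L_1), 17535 (HS_L_2) and 7773 (HS_L_3) RPKM, and the groups overlapped. The files thus list the alternative only at 30 ppt while the gene table lists the gene at a like level in both groups.

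The same held for most other genes with events in 1 group only. In ythdc1, a nuclear reader of m6A-modified RNA, an exon on chromosome 14 (plus strand) ended at 26994766 with 12.3, 8.24 and 9.67 FPKM or at 26995782 with 4.19, 2.18 and 4.81 FPKM in the HS_L libraries, while the gene had 13.0 to 22.8 RPKM in the LS_L group and 13.2 to 24.4 in the HS_L group. In slc33a1, the acetyl-CoA transporter of the endoplasmic reticulum, the shorter exon had 3.36, 4.89 and 2.93 FPKM in the HS_L libraries. In the other direction, arpin, an inhibitor of the Arp2/3 actin-nucleating complex, had forms 44 bases apart at the 5′ end (chromosome 6, minus strand) listed in the LS_L group only. The longer form had 7.83, 4.12 and 4.55 FPKM, and the gene had 6.26 to 11.6 RPKM in the LS_L group and 5.58 to 9.54 in the HS_L group. LOC103395788 had 2.38, 51.6 and 9.98 FPKM at 15 ppt, LOC103399022 had 13.4, 6.18 and 5.00, and the 2 forms of an unnamed transcript had 5.68 to 12.2 and 1.78 to 4.79. Of the 18 features behind all these events, 14 were tested in the gene table. Of these, 2 had an unadjusted p under 0.05, against 6.57% of all features, with a lowest adjusted p of 0.727 in limma. In dnaaf4, with exon ends listed in the HS_L group only, the gene was higher at 15 ppt. It had 13.0, 3.28 and 3.40 RPKM in the LS_L group and 1.87, 1.03 and 2.82 in the HS_L group, without overlap. When missing events were set to 0, 6 exon ends were called, and all were events listed in 1 group only. They were both forms of LOC103393827, the shorter forms of ythdc1 and LOC103399022, and the longer forms of arpin and the unnamed transcript. Their values in the other group were the 0 that had been set, so the calls follow from the listing and are no separate result. That setting takes an event that was not assembled as an event with no expression.

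Exon ends in the cholesterol synthesis list were few, and more of their listings were at 15 ppt. Of 26 list members in the reference, 18 had an event of any type in the files and 4 carried exon ends, among them pmvk, lss and mvk. Their 8 events gave 12 listings in LS_L libraries and 2 in HS_L libraries, against 7111 and 7284 for all exon ends. The 8 events were longer and shorter forms of the same exons, and both forms were always listed in the same libraries. The listings are therefore not independent. None was listed in all 6 libraries, so 0 were tested. LOC103395808, a gene outside the list that the study's tables describe as 3-keto-steroid reductase-like, was listed in more HS_L than LS_L libraries. Its RPKM was nonetheless higher at 15 ppt, with 42.0, 48.5 and 49.2 against 23.5, 12.1 and 12.4 at 30 ppt. These RPKM values did not overlap (adjusted p = 0.265 in limma). Its longer exon (chromosome 20, 203371 to 203475, minus strand) had 31.4 FPKM in LS_L_3, 15.8 in HS_L_1 and 7.38 in HS_L_3. In pmvk, the phosphomevalonate kinase, an exon on chromosome 13 (3127133 or 3127153 to 3127285, minus strand) had 177 and 170 FPKM in its longer form and 107 and 102 in its shorter form in LS_L_2 and LS_L_3, and was not listed in LS_L_1. In lss, the lanosterol synthase, the longer of the forms 27 bases apart (chromosome 16, 16238973 to 16239081, plus strand) had 25.1 and 31.0 FPKM in LS_L_2 and LS_L_3 and 1.29 in HS_L_2. The acceptors of mvk, the mevalonate kinase, were listed in LS_L_3 only, at 1.64 and 6.37 FPKM. The RPKM of pmvk was 244, 250.4 and 233 at 15 ppt and 51.0, 31.8 and 26.6 at 30 ppt.

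Pmvk was also the only gene with exon ends that passed the test of RPKM. Of 761 such features tested among 9343, 1 was called (0.0428% over all features), up-regulated in the LS_L group with a log2 fold change of 2.76 ± 0.27 (SE) and an adjusted p of 0.0455 in limma. Next came lss, with 33.1, 67.0 and 47.0 RPKM in the LS_L group and 4.28, 3.29 and 2.04 in the HS_L group (3.57 ± 0.38, adjusted p = 0.0583). The groups did not overlap in either gene. The study used another test, DESeq2 on read counts, and listed lss, mvk and LOC103395808 as up-regulated at low salinity as well as pmvk. The pmvk call was lost with the replicate number as a block (adjusted p = 0.134) and without any library other than LS_L_1 (0.0962 to 0.316). Over all features with exon ends, 40 (5.26%) had an unadjusted p under 0.05, against 6.57% of all features. Of the 3037 features with exon ends, 1763 (58.1%) had no read in any library, all of them overlapping another feature, against 37.1% of the other features, so that the gene table gives no level for these features. Reads on overlapping features are not assigned in the union mode of counting.

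Splicing factors also carried exon ends of their own. Of 53 list members in the reference, 30 had an event of any type and 21 carried exon ends, 62 events in all, of which 20 were in all 6 libraries and 25 in 1. Of the 7 tested events, in srsf2a, u2surp, mbnl1, u2af2a and tra2b, 0 were called and 1 (that of mbnl1) had an unadjusted p under 0.05. Both forms of u2surp and of tra2b were among the 7. The log2 fold change was positive in 6 and negative in 1, with a median of 0.39. Over all 521 tested exon ends, 5.57% had an unadjusted p under 0.05, and 252 changes were positive and 269 negative. In srsf2a, an SR protein, the exon at 6014107 to 6014449 on chromosome 8 (minus strand) had 83.9, 42.0 and 39.7 FPKM in the LS_L group and 45.9, 26.6 and 37.9 in the HS_L group. In u2surp, a U2-associated protein, the shorter form (chromosome 3, 9661517 to 9661690, plus strand) had 39.2, 15.7 and 12.2 FPKM in the LS_L group and 23.5, 7.67 and 15.3 in the HS_L group. The groups overlapped in both. LS_L_1 was the highest library in each. The highest events of srsf5b (52.9 FPKM, HS_L_1) and srsf1a (34.4 FPKM, LS_L_1), both SR proteins, were listed in a single library. The shorter exon of sf3b1, a subunit of the U2 snRNP that binds the branch point, had 26.3 FPKM in LS_L_2, 36.5 in HS_L_1 and 25.3 in HS_L_2.

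Few genes of osmoregulation or of the secreted liver proteins had exon ends in the files. Of 27 members of the osmolyte, water and ion transport list, 14 had an event of any type, and atp1a3b, an alpha subunit of Na+/K+-ATPase, and aqp9a, an aquaporin, carried 3 exon ends. None reached the minimum for the test. The forms of atp1a3b were in all 6 libraries, at 1.56 FPKM or less. Of 32 secreted liver proteins, 14 had an event and 3 carried 10 exon ends. In rbp4, the plasma carrier of retinol, a pair of forms 36 bases apart at the 3′ end (chromosome 8, plus strand) was listed in every library but LS_L_1. The longer form had 1214 and 1354 FPKM in LS_L_2 and LS_L_3 and 924, 1656 and 1412 in the HS_L libraries, and the shorter form 288 and 333, and 252, 405 and 642. The longer form led in all 5 libraries, and the groups overlapped. In plg, the gene of plasminogen, acceptors 24 bases apart were listed in HS_L_2 only, and others 21 bases apart in LS_L_2 only. In f5, coagulation factor V, 4 acceptors of an exon were spread over LS_L_2 and HS_L_1, at 0 to 69.5 FPKM.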

How the data were processed

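Liver RNA of 6 pooled libraries (LS_L, HS_L, 3 each) had been sequenced. The authors aligned the reads with TopHat2 (version 2.0), removed reads that mapped to several places and counted the rest with HTSeq in union mode. They deposited an RPKM table with 1 column per library, a table with a signal per group (reads divided by size factors, not used here) and feature lengths, and 1 file per library of events with the FPKM of the transcripts that carry each event. The tool that made the event files is not given in the sources used here. From RPKM and length, over 99.9% of values under 200 reads came out whole (within 0.1 read), which gave the depths. No other columns of values per sample were left out (0).

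The members, gene lists and tests were chosen with earlier results of these data known. Exact and approximate rows of a library with the same coordinates always had the same FPKM (412 keys, 0 differing), so the value was taken once, where the design had a sum; the sum was run as an alternative. Limma 3.58.1 in R 4.3.3 (trend and robust settings, without trend for ratios) was fitted to log2 of FPKM, RPKM or of a ratio, scaled by medians of ratios, with a pseudocount of 1, a minimum mean of 1 and no covariate, and p-values were adjusted over all events, pairs or features. On the log2(value + 1) scale the changes of low values come out smaller. Calls needed an adjusted p under 0.05 and, other than for ratios, a log2 fold change beyond 1. On simulated data for the 8329 events, 198 of 200 changed by a log2 fold change of 2 were recovered, with 3 false calls. The simulation gave all events a common spread, the median of the real events, and did not model values at 0. Of the 521 tested exon ends, 186 had a 0 in at least 1 library, and recovery was not tested for such events. Single values were compared with exact permutation tests (Python 3.11.15, scipy 1.17.1), and shares carry 95% Wilson intervals.

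Names came from RefSeq (Cse_v1.0) by accession for 1640 of 3037 transcripts and by position for 1185, while 212 were not matched. The 1501 matched both ways had the same gene. Events without a named transcript took the name of the reference gene they lay inside, if there was only 1 (246 events). Coordinates are those of the files. Named are called events, the 10 pairs with the lowest p, the 10 events with the highest mean FPKM in all 6 libraries, the 5 genes with most events, the 5 highest events listed in 1 group only in each direction, and up to 4 genes of each of the 4 lists with the highest FPKM. Hepatocyte, pancreas, muscle and red blood cell markers were summed. For the features, same-numbered libraries correlated at 0.173, 0.165 and 0.232 after subtracting group means, so the fit with the replicate number as a block is given beside the gene result; the numbers come from the labels, which name nothing that same-numbered tanks shared. The values of 1 gene of the cholesterol list are not reported here.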

Additional observations from a re-analysis of the deposited data

How the results depend on the processing

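The difference in event numbers was -72.7 to -40.2 when each library was left out and -48.3 with exact events only. As a share of all events, both forms of a skipping or retention event counted, it was -0.09 percentage points (exact permutation p = 0.5). With events of at least 1 FPKM it was -22.0, and the groups overlapped (exact permutation p = 0.9). The sign changed with events of at least 10 FPKM, to a difference of 10.3 events, also with overlap (exact permutation p = 0.8). The percent of events in all libraries was 33.2 (33.3 when both ends had to match within 5 bases), 36.1 with exact events, 9.05 with events of at least 1 FPKM, and 36.0 to 36.9 when each library was left out, where 5 libraries remain to be shared. The count of called exon ends was 0 in the reported fit and 6 with missing events set to 0, all of them events listed in 1 group only. The count ranged from 0 to 1 when each library was left out: 1 without LS_L_1 (LOC103379358) and 1 without HS_L_2 (mbnl1). In these 2 fits, 27 of 526 (5.13%) and 23 of 529 exon ends (4.35%) had an unadjusted p under 0.05 in limma. Without filter, 0 of 1584 exon ends were called and 19 (1.20%) had an unadjusted p under 0.05. The shares over events of all types are not given for these settings, so these counts cannot be set against a background. For pairs the count was 0, and 2 with a pseudocount of 0.1, with 0 when any library was left out. The count of called features with exon ends was 1, and 0 without filter, 3 without scaling, and 0 to 2 when each library was left out, with 2 without LS_L_1 and 0 without any other library. The cause was not tested.

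With the replicate number as a block, the difference in event numbers was -57.7 (exact permutation p = 0.25, the smallest for 3 pairs), and 0 exon ends, 0 pairs and 0 features were called. For events, same-numbered libraries correlated at 0.108, 0.090 and 0.078 over all types, and not every library correlated best with its own number, so the numbers were not taken as pairs. No depth is known for single exon ends, since FPKM was computed on assembled transcripts, and a 0 may be an exon end that was listed but given no reads.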

Other observations

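Some of the exon ends with the highest FPKM were listed in a single library and so were not tested. In LOC103385810 (chromosome 11, 2333214 to 2333287 and to 2333315, minus strand) acceptors 28 bases apart had 6972 and 3985 FPKM in HS_L_1, and were not listed in the other 5 libraries. The acceptors of plg reached 813 FPKM in HS_L_2 and, at another exon, 809 in LS_L_2. In slc2a11l, a gene named after a class of sugar transporters, exon ends were listed in LS_L_3 (1.11 and 3.12 FPKM) and, at another exon, in HS_L_3 (5.15 and 10.2 FPKM). Its RPKM was 0.282, 6.84 and 6.94 at 15 ppt and 37.3, 84.0 and 25.8 at 30 ppt, without overlap (adjusted p = 0.53 in limma).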
